A study of Mus musculus with 42 samples.

Results

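The baseline of the colon lines CT26 and MC38 was set against that of the lung line LLC and the pancreatic line Pan02, over the DMSO libraries alone. These were 12 of the 42 libraries of the series, 6 on each side. A gene was taken up where both lines of a side lay beyond both lines of the other side, among genes whose mean reached 1 TPM in any of the 4 lines. TPM is a gene's share of all transcripts in a library after division by gene length. Of the 55401 genes in the tables, 14039 reached that level, and the line means of log2(TPM + 1) separated the sides in 4309 of them (30.7%). The colon lines lay higher in 2105 (15.0%) and lower in 2204 (15.7%). Where the order of 4 lines is arbitrary, 2 given lines lie beyond the other 2 in a share of 0.333. The 30.7% is not above that share, so the count alone does not show a baseline shared by the colon lines.

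The series sequenced polyadenylated RNA of 7 mouse tumour lines kept for 6 h in 10 µM RECTAS or in its vehicle. Its title names a search for neoepitopes made by altered splicing. RECTAS is a small molecule that modulates splicing. Per the labels, CT26 is a colorectal adenocarcinoma line, MC38 a colorectal carcinoma line, LLC a lung carcinoma line and Pan02 a pancreatic adenocarcinoma line. Each was kept in 0.1% DMSO for 6 h and gave 3 libraries. No line carried an introduced allele per the labels, and each stands for its tumour type as a single line in culture. CT26 and MC38 were grown in RPMI-1640, and LLC and Pan02 in DMEM, all with fetal bovine serum, penicillin and streptomycin, so the side and the medium cannot be told apart. As background, CT26 came from a BALB/c mouse and the other 3 lines from C57BL/6 mice. Nothing in the labels tells whether separate cultures lie behind a line's 3 libraries, and the spread that p-values rest on may be technical. Taken over lines, 2 against 2, the smallest exact two-sided permutation p would be 0.333, and nothing here tests colon tumours against other tumours in general.

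Transplantable tumour lines differ in how much of the program of their tissue they keep. Carcinomas arise from epithelium, whose cells are held together by E-cadherin and framed by paired keratins. Cells that have moved towards a mesenchymal state lose these, gain N-cadherin and vimentin, and make and remodel matrix. Colon epithelium is set by the transcription factor Cdx2, lung epithelium by Nkx2-1 and early pancreas by Pdx1 and Ptf1a.

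The tissue labels were checked against markers first, and most defining markers were near 0. Cdx2 was at 6.64, 7.36 and 6.30 TPM in CT26, listed at 0 in all libraries of MC38 and LLC, and at 11.7, 10.9 and 10.9 TPM in Pan02. Krt20, an intestinal keratin, was at 592, 585 and 597 TPM in CT26 and at no more than 0.13 TPM in any library of the other 3 lines. So CT26 held Krt20 at a high level and Cdx2 at a lower one, MC38 held neither, and the pancreatic line held more Cdx2 than CT26. The intestinal stem cell gene Lgr5 averaged 17.2 ± 1.47 TPM (SD, n = 3, as for all means below) and Cdh17, an intestinal cadherin, 25.3 ± 1.14 TPM in Pan02, and both stayed under 0.5 TPM in the other lines. Of the 15 intestinal markers, 6 were tested and 0 were called. Means of at least 1 TPM were reached by 4 of the markers in CT26, 1 in MC38, 1 in LLC and 5 in Pan02. The defining lung genes Nkx2-1, Sftpa1, Sftpd and Scgb1a1 were listed at 0 in all 4 lines, and 0 of 3 tested lung markers were called. Those 3 (Hopx, Napsa and Ager) were at or above 1 TPM in LLC, and the summed level of the 10 lung markers had a median of 39.3 TPM in LLC, 29.1 in MC38, 2.73 in CT26 and 1.67 in Pan02. Hopx, at 37.3 ± 2.16 TPM in LLC and 24.5 ± 1.17 in MC38, made up most of it. Ptf1a, Cpa1, Pnlip, Prss1 and Ins2 were listed at 0 throughout, while Pdx1 averaged 18.0 ± 0.234 TPM in CT26 and 25.9 ± 0.908 TPM in Pan02 and was under 0.03 TPM in MC38 and LLC. Of the 4 tested pancreas markers, 0 were called. MC38 thus lacked Cdx2 and Krt20, and LLC held Hopx but lacked the defining lung genes named above. The names are used here as the labels give them.

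**Figure D1:**
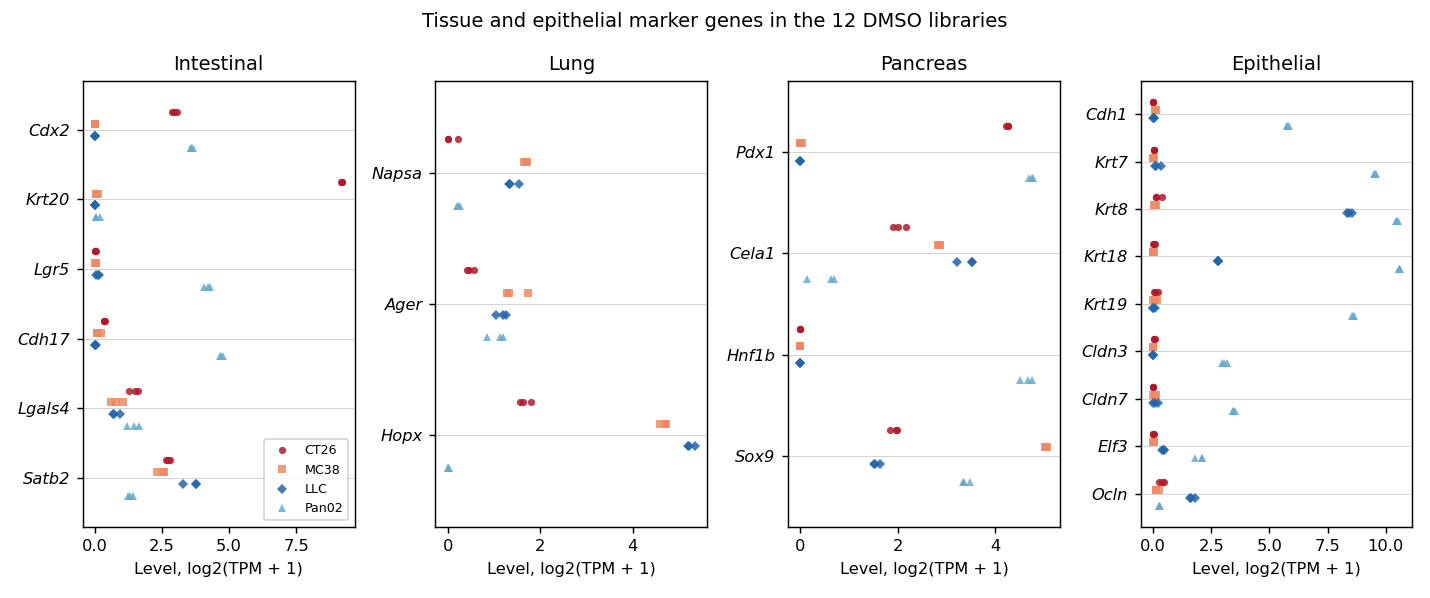
Level, as log2(TPM + 1), of the tested intestinal, lung, pancreas and epithelial marker genes in each of the 12 DMSO libraries, 1 point a library, coloured and shaped by line. Krt20 stands high in CT26 alone, Cdx2 is present in CT26 and higher in Pan02, and most epithelial genes stand high in Pan02 alone.

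Epithelial genes mainly marked Pan02. Cdh1, the E-cadherin gene, was at 56.3, 52.7 and 52.7 TPM in Pan02 and under 0.1 TPM in every library of the other lines, and Krt7 and Krt19 averaged 738 ± 22.1 and 385 ± 15.2 TPM in Pan02 against under 0.3 TPM elsewhere. Of the 9 tested epithelial markers, 3 were called lower in the colon lines and 0 higher, with a median difference of -2.85 on the log2 scale. Epcam, a defining epithelial gene, did not reach 1 TPM in any of the 4 lines. Among 17 tested mesenchymal markers only Cdh2, the N-cadherin gene, was called, and the median difference was 0.43. Vim was high in all 4 lines, with means of 4429 ± 66.3 in CT26, 2214 ± 33.1 in MC38, 2405 ± 67.4 in LLC and 2256 ± 128 in Pan02. Markers of blood cells, endothelium and melanocytes gave 0 calls among 2, 0 and 0 tested genes. Y-linked genes were present in LLC alone, with Eif2s3y at 13.0 ± 3.14 TPM there and listed at 0 in the other 3 lines.

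Across all tested genes the colon lines were not the most alike pair. The Pearson correlation of line means across 14039 genes, which are not independent replicates, was 0.866 between CT26 and MC38, 0.901 between MC38 and LLC, 0.869 between CT26 and LLC, 0.858 between LLC and Pan02, 0.849 between MC38 and Pan02 and 0.846 between CT26 and Pan02. These are descriptions over libraries that share a processing, and carry no test.

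A gene was called where its 4 cross-line differences had the same sign and the largest of their limma p-values, adjusted over all 14039 genes, was under 0.05. By this rule 877 genes (6.25%) were called higher in the colon lines and 905 (6.45%) lower. The size of a call is given below as the smallest of its 4 cross-line differences on the log2(TPM + 1) scale, and its median was 0.47 for the higher and 0.49 for the lower genes. It reached 1 in 165 higher and 144 lower genes. The median difference between the sides over all tested genes was 0.0032, so the sides were centred on each other. Just inside the separation rule lay Zgrf1, with 4.02 and 4.91 TPM in CT26 and MC38 against 7.34 and 4.90 TPM in LLC and Pan02 by its means of TPM, whose log2 means differed by less than 0.0001 at the closest pair. Just outside lay Tada3, with 22.4 and 23.6 against 17.3 and 22.4 TPM. At the level filter, Cgn entered with a mean of 1.0 TPM in Pan02 and Cdh6 did not with 0.997 TPM in CT26.

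The 12 RECTAS libraries of the same lines, which the rule did not use, gave 957 higher (6.84%) and 885 lower calls (6.33%) among 13983 tested genes. Of the higher calls of the DMSO libraries, 770 were called again, which is 87.8% of the DMSO calls and 80.5% of the RECTAS calls. Of the lower calls 746 came again, 82.4% and 84.3% of the 2 sets. No gene called in the DMSO libraries was called in the opposite direction with RECTAS.

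Cd34 led the genes higher in the colon lines. It encodes a surface sialomucin known from blood stem cells, endothelium and fibroblasts. Its values were 650, 660 and 660 TPM in CT26, 462, 454 and 455 in MC38, 1.0, 1.05 and 0.80 in LLC, and 0.06, 0.03 and 0.05 in Pan02. The 6 colon libraries stood far above the 6 others, with no overlap. The smallest cross-line difference was 7.88 and the difference between the sides 8.59 ± 0.03 (SE; limma adjusted p = 3.364e-15). Cd34 lies on chromosome 1 at 194938819 to 194961279 of GRCm38 on the plus strand, has 7 exon blocks and overlaps Gm16897 on the opposite strand. Endothelial markers did not move with it, as the means of all 6 stayed under 1 TPM in the 4 lines.

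Krt8 led the genes lower in the colon lines. It encodes a keratin of simple epithelia that pairs with Krt18. Its values were 0.10, 0.30 and 0.10 TPM in CT26, 0.02, 0.10 and 0.06 in MC38, 326, 372 and 341 in LLC, and 1463, 1395 and 1418 in Pan02. LLC and Pan02 were both high and the colon lines both near 0, with a smallest cross-line difference of 8.22 and a difference between the sides of -9.31 ± 0.05 (limma adjusted p = 6.027e-14). Its partner Krt18 was at 5.96, 6.02 and 6.01 TPM in LLC and at 1567, 1537 and 1520 TPM in Pan02, against 0.05 TPM or less in every colon library. LLC therefore held far more Krt8 than Krt18, while Pan02 held about as much of each. Krt8 lies on chromosome 15 at 101996698 to 102004482 on the minus strand, with 9 exon blocks and Gm36026 on the opposite strand, and Krt18 lies nearby at 102028180 to 102032027 on the plus strand. The third called epithelial gene, the transcription factor Elf3, was low throughout, with means of 0.0067 ± 0.0115 and 0.0233 ± 0.0208 TPM in CT26 and MC38 and 0.35 ± 0.0346 and 3.05 ± 0.50 TPM in LLC and Pan02 (limma adjusted p = 0.005933). Its call was lost where the chromosome medians were removed (adjusted p = 1.0) and at a pseudocount of 5 (adjusted p = 0.2049).

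The promoters of these 2 leading genes are shown from the RefSeq table of GRCm38.p6. Each has 300 bases, from 250 before to 50 after the RefSeq start, 5′ to 3′ on the strand of the gene. That start lies 2 bases from the GENCODE start for Cd34 and 140 bases from it for Krt8. Capitals mark TATAAA, searched on both strands, where matches may overlap.
Cd34 (chr1:194938571-194938870, + strand): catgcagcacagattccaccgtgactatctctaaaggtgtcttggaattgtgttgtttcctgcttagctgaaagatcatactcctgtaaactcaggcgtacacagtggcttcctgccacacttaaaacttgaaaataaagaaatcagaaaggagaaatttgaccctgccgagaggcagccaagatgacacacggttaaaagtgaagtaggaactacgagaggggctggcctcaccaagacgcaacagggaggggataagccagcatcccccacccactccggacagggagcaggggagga
Krt8 (chr15:102004293-102004592, - strand): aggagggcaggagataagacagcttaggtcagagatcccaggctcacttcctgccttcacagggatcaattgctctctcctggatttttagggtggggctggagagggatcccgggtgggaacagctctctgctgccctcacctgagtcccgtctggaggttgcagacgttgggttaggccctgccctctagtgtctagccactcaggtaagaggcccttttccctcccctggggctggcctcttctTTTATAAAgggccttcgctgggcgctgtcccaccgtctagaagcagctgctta
The Krt8 window held TATAAA on both strands, in overlapping matches that span the RefSeq start, and the Cd34 window held none. Of 8729 tested genes with a promoter in the table within 500 bases of their annotated start, 596 (6.8%) held TATAAA, against 42 of 582 genes called higher (7.2%) and 39 of 642 called lower (6.1%). Both windows were poor in CG pairs, with 7 in Cd34 and 6 in Krt8 against a median of 21 over the tested genes. These counts describe the letters of the windows and no factor's binding.

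**Figure D2:**
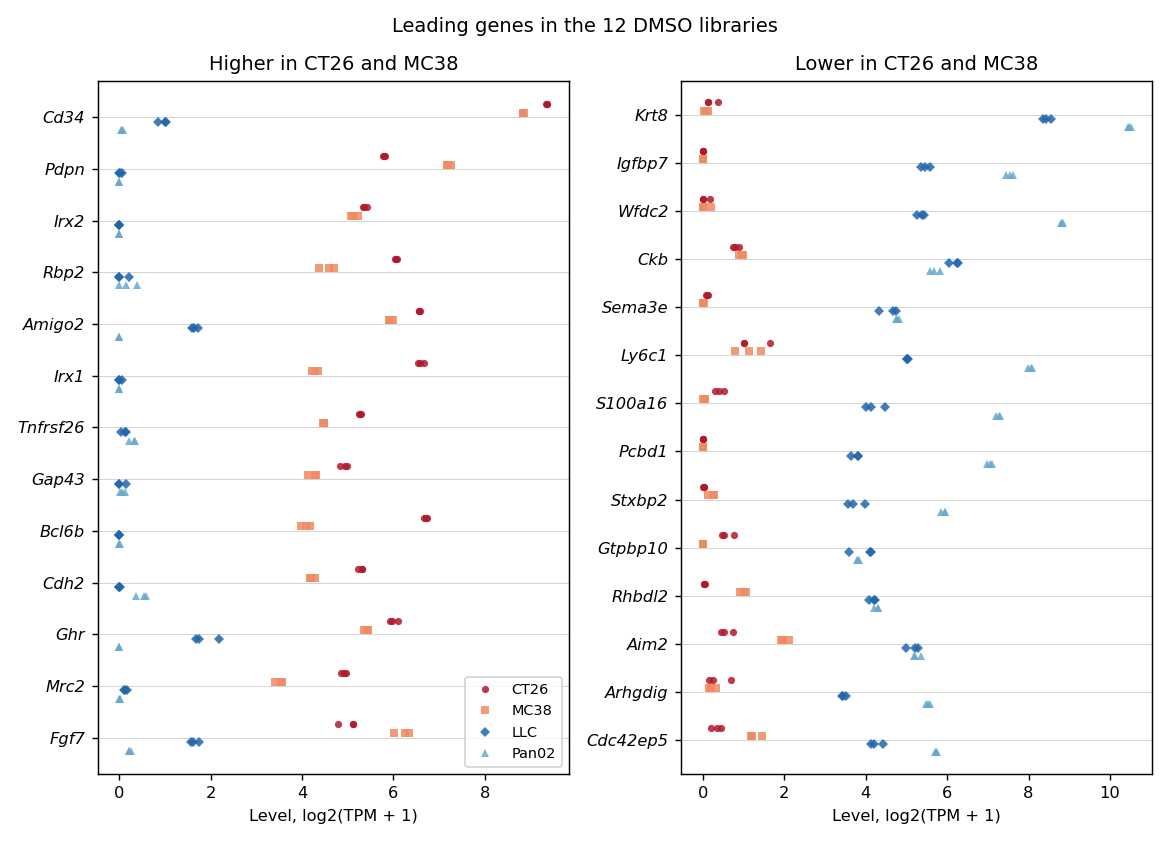
Level, as log2(TPM + 1), of leading genes higher and lower in the colon lines, in each of the 12 DMSO libraries, 1 point a library. In every gene drawn the 6 colon libraries and the 6 others do not overlap, which choosing genes by the largest gap nearly ensures. In most the low side lies near 0.

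The leading genes were the 14 protein-coding genes each way with the largest smallest cross-line difference. This ran from 3.36 to 7.88 in the higher and from 2.98 to 8.22 in the lower genes. All 28 were called in the RECTAS libraries too, in the same direction. Both low lines were under 1 TPM in 11 of the 14 higher and in 10 of the 14 lower genes, so the lists are mostly genes on in one pair of lines and off or nearly off in the other.

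After Cd34 came Pdpn, the podoplanin gene of lymphatic vessels and invasive stroma, on chromosome 4. It was at 54.4, 55.2 and 53.3 TPM in CT26 and at 151, 142 and 146 TPM in MC38, against 0.05 TPM or less in LLC and listed at 0 in Pan02. MC38 held more than CT26, and neither overlapped the other side.

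Neighbouring genes of the same family entered the higher list together. Irx1 and Irx2 are homeobox factors of limb, heart and nerve development, 665.1 kb apart on chromosome 13. Irx1 averaged 96.2 ± 4.67 TPM in CT26 and 18.5 ± 0.933 in MC38, and Irx2 40.3 ± 1.45 and 34.3 ± 2.14, and apart from 1 LLC library with 0.05 TPM of Irx1 both were listed at 0 in every library of LLC and Pan02. CT26 was the higher colon line for both. Rbp2, a retinol carrier known from the small intestine and located on chromosome 9, averaged 65.4 ± 1.18 TPM in CT26 and 22.5 ± 2.66 in MC38 against 0.0567 ± 0.0981 in LLC and 0.143 ± 0.163 in Pan02.

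Of the rest, Amigo2 is an adhesion protein of neurons, Gap43 a protein of growing axons and Cdh2 the N-cadherin of nerve and mesenchyme. Gap43 averaged 29.2 ± 1.57 TPM in CT26 and 17.9 ± 1.14 in MC38 against 0.11 TPM or less in every LLC and Pan02 library. Cdh2 averaged 38.0 ± 1.25 and 17.6 ± 0.756 TPM against 0.0033 ± 0.0058 in LLC and 0.417 ± 0.114 in Pan02 (limma adjusted p = 2.154e-11). Thus, of the 2 classical cadherins that mark epithelium and mesenchyme, Cdh2 separated the sides and Cdh1 did not.

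Ghr encodes the growth hormone receptor, Mrc2 a receptor that takes up collagen, Bcl6b a transcriptional repressor and Tnfrsf26 a member of the TNF receptor family. Bcl6b averaged 104 ± 2.63 TPM in CT26 and 15.9 ± 1.06 in MC38 and was at 0.01 TPM or less in every other library. Fgf7, a fibroblast growth factor that acts on epithelium, had, like Pdpn, more in MC38 than in CT26, at 63.8, 80.2 and 74.9 TPM against 33.5, 33.5 and 26.8, and it averaged 2.12 ± 0.191 TPM in LLC and 0.177 ± 0.0115 in Pan02. Amigo2 and Tnfrsf26 overlap Pced1b and E230032D23Rik on the opposite strand, and reads of such pairs can be assigned to either where strand was not used.

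Among the leading lower genes, Igfbp7, which binds insulin-like growth factors, was listed at 0 in all 6 colon libraries and was at 46.8, 42.9 and 40.4 TPM in LLC and 195, 187 and 174 in Pan02. Wfdc2, a secreted protease inhibitor of glandular epithelium, was at 0.15 TPM or less in the colon libraries and averaged 40.0 ± 2.38 TPM in LLC and 450 ± 8.41 in Pan02. Sema3e, a secreted guidance cue for vessels and axons, averaged 23.2 ± 3.53 TPM in LLC and 26.5 ± 0.715 in Pan02 and stayed under 0.1 TPM in the colon libraries. Pan02 exceeded LLC by far in Igfbp7 and Wfdc2, and the 2 lines were close in Sema3e. Igfbp7 overlaps Polr2b on the opposite strand.

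Metabolic and signalling genes followed. Ckb, the brain-type creatine kinase on chromosome 12, averaged 0.757 ± 0.0961 TPM in CT26 and 0.933 ± 0.0666 in MC38 against 71.8 ± 5.64 in LLC and 50.8 ± 4.17 in Pan02. Pcbd1, which recycles the cofactor tetrahydrobiopterin and binds Hnf1 factors, was listed at 0 in all colon libraries and averaged 12.6 ± 0.878 TPM in LLC and 132 ± 5.86 in Pan02. Aim2, a sensor of DNA in the cytosol, averaged 0.497 ± 0.155 and 3.02 ± 0.280 TPM in CT26 and MC38 against 35.0 ± 3.71 and 37.3 ± 2.46 in LLC and Pan02. Stxbp2, which acts in granule release, averaged 0.0133 ± 0.0115 and 0.167 ± 0.0666 TPM in the colon lines against 12.5 ± 2.08 and 59.4 ± 2.56. The others were Ly6c1, S100a16, Gtpbp10, Rhbdl2, Arhgdig and Cdc42ep5, with smallest cross-line differences of 3.80, 3.79, 3.22, 3.17, 3.10 and 2.98. Ly6c1 has close relatives in its gene family and Arhgdig overlaps Rgs11 on the opposite strand, so their values are uncertain to that extent.

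The leading genes were also read in the 3 other lines of the series, in DMSO. B16 is a melanoma, EG7 a lymphoma and WEHI3 a leukaemia line, all in DMEM. Of the 14 leading higher genes, 12 were above all 3 of these lines in both colon lines, and 9 were under 1 TPM in all 3. The exceptions were Tnfrsf26, at 86.5 ± 2.82 TPM in WEHI3, and Cdh2, at 106 ± 3.28 TPM in B16. Of the 14 leading lower genes, only Stxbp2 was below all 3 lines in both colon lines, and 6 (Krt8, Wfdc2, Ckb, Sema3e, Pcbd1 and Arhgdig) were under 1 TPM in all 3. Over all calls, 387 of 877 higher genes (44.1%) and 290 of 905 lower genes (32%) lay beyond all 3 other lines. These lines also differ from the 4 in tissue, and mouse strain was not taken into account, so the values are a description.

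Genes were then read by list, in 30 pathway lists, with the share of calls set beside 6.25% higher and 6.45% lower over all genes, and the median difference beside 0.0032. Since many of these lists hold few genes, a share of 1 or 2 genes is near that background.

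**Figure D3:**
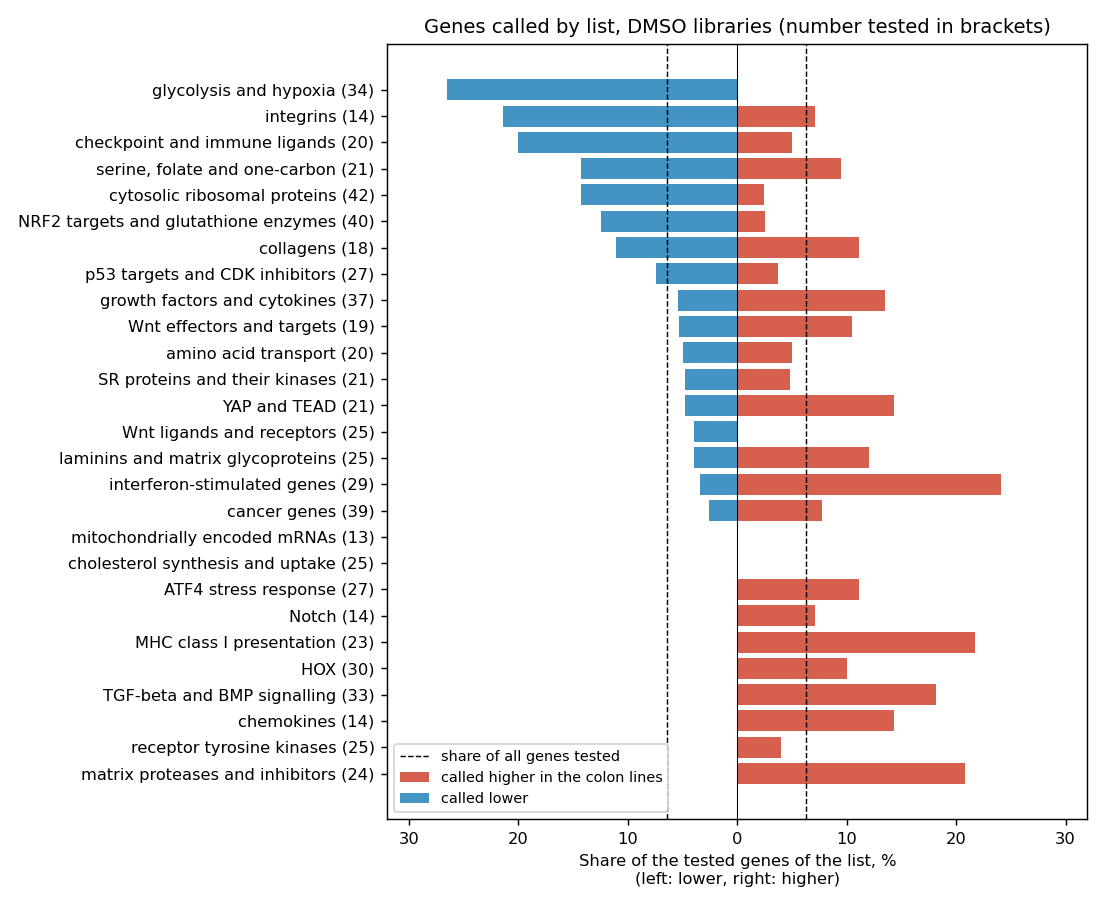
Share of the tested genes of each pathway list with at least 10 tested genes that was called lower (left) or higher (right) in the colon lines, with the number tested in brackets. Dashed lines give the shares over all 14039 genes, 6.45% lower and 6.25% higher. Glycolysis and hypoxia lies farthest to the left, and interferon-stimulated genes, MHC class I presentation and matrix proteases farthest to the right.

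Matrix and adhesion genes were called in both directions. Among 24 tested matrix proteases and inhibitors, 5 were called higher (20.8%) and 0 lower, with a median difference of 0.89, and all 5 were called with RECTAS. The list summed to a median of 2223 TPM in CT26, 886 in MC38, 611 in LLC and 1035 in Pan02, so its total did not separate the sides. The gelatinase Mmp9 was at 2.48, 2.61 and 2.43 TPM in CT26 and 6.64, 7.46 and 6.07 in MC38, against 0.15, 0.23 and 0.21 in LLC and 0, 0.06 and 0.22 in Pan02. MC38 was highest, and LLC and Pan02 were both low (difference 2.19 ± 0.06, limma adjusted p = 2.413e-07). Mmp2 averaged 18.8 and 19.6 TPM in CT26 and MC38 and 16 and 0.04 TPM in LLC and Pan02, so its call (smallest difference 0.22, adjusted p = 0.01022) rests on a small step from LLC. Adam19 and Mmp11 were called higher as well.

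Of 25 tested laminins and matrix glycoproteins, 3 were called higher and 1 lower. Fbln1, a fibulin of elastic matrix, averaged 22.5 ± 0.372 and 18.8 ± 0.233 TPM in CT26 and MC38, was listed at 0 in LLC and averaged 1.66 ± 0.196 TPM in Pan02. Thbs2, a thrombospondin, averaged 174 ± 6.41 and 187 ± 3.38 TPM against 37.2 ± 3.19 in LLC and 0.463 ± 0.0321 in Pan02, and Sparc was higher by 1.76 ± 0.02 on the log2 scale. Lama5, a laminin chain of epithelial basement membrane, was lower, at 8.33 ± 0.113 and 0.07 ± 0.052 TPM against 28.9 ± 3.73 and 47.0 ± 8.02. The basement membrane collagen Col18a1 was lower as well, at 14.6 ± 0.592 and 17.5 ± 0.918 TPM against 65.4 ± 2.94 and 238 ± 17.3, with 2 of 18 collagens called each way (Col8a1 and Col4a5 higher, Col18a1 and Col5a1 lower). Among 14 integrins, 3 were called lower and 1 higher. The laminin-binding Itga7 averaged 0.38 ± 0.0819 and 0.59 ± 0.0529 TPM against 6.89 ± 0.405 and 17.2 ± 0.784, Itga6, which also binds laminin, and Itgb7 were lower too, and Itgb1, the common partner chain, was higher (smallest difference 0.17, adjusted p = 0.03573). Under quantile normalization and with chromosome medians removed, 0 integrins were called higher.

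Growth factor genes were called in 7 of 37 tested, 5 higher and 2 lower. Bmp2, a bone morphogenetic protein, was at 53.8, 51.4 and 48.6 TPM in CT26 and 2.78, 2.98 and 3.12 in MC38, and at 0.01 TPM or less in the other 6 libraries. The level in CT26 was many times that in MC38, although both passed the test (smallest difference 1.98, limma adjusted p = 1.002e-09). Ereg, a ligand of the EGF receptor, Il34, a ligand of the CSF1 receptor, and Lif, a cytokine of the IL6 family, were higher by 2.27 ± 0.08, 2.31 ± 0.05 and 2.01 ± 0.06. Ptn, the heparin-binding factor pleiotrophin, was lower, at 0.26 TPM or less in the colon libraries, 89.4, 56.8 and 78.2 TPM in LLC and 7.85, 9.22 and 7.44 in Pan02. Bmp1, a protease that trims procollagen, was the other lower gene and was not called with RECTAS. Among 25 tested receptor tyrosine kinases only Axl was called, at 404 ± 9.37 and 270 ± 7.96 TPM in CT26 and MC38, 121 ± 1.82 in LLC and 6.54 ± 0.927 in Pan02.

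TGF-beta and BMP genes were called higher in 6 of 33 (18.2%) and lower in 0, with a median difference of 0.26. Summed over the list, the median level was 1607 TPM in CT26, 599 in MC38, 667 in LLC and 795 in Pan02. MC38 was thus the lowest line in total, and the total did not separate the sides. The secreted BMP antagonist Grem1 was at 127, 124 and 109 TPM in CT26, 31.6, 37.9 and 35.8 in MC38, 10.5, 7.80 and 9.88 in LLC and 0.16, 0.16 and 0.11 in Pan02. The 4 lines stood in that order with no overlap of libraries. Ltbp4, which stores latent TGF-beta in matrix, was higher by 1.5 ± 0.07, and the decoy receptor Bambi, the ubiquitin ligases Smurf1 and Smurf2 and the Id-family factor Id4 completed the 6. The list held 4 to 7 higher calls under the other scalings and corrections.

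Wnt genes gave no shared direction. Among effectors and targets, Lef1, a transcription factor of the pathway, averaged 6.19 ± 0.276 and 7.15 ± 0.381 TPM in CT26 and MC38 against 0.20 ± 0.182 and 0.0033 ± 0.0058, and the feedback gene Axin2 averaged 2.09 ± 0.186 and 1.89 ± 0.314 TPM against 0.797 ± 0.235 and 0.173 ± 0.0306. Both passed the test, with 2 higher and 1 lower among 19 tested and a median difference of -0.23. The lower call, the kinase Gsk3b, was lost on leaving out any of 8 of the 12 libraries (limma adjusted p = 0.05086 to 0.1374). Of 25 ligands and receptors only Wnt6 was called, lower, and that call was lost without CT26 replicate 1, Pan02 replicate 2 or Pan02 replicate 3 (adjusted p = 0.07708 to 0.08183). In the YAP and TEAD list 3 of 21 were called higher (the coactivator Wwtr1, Amot and the kinase Lats2) and 1 lower (Sav1). The call of Lats2 was lost with chromosome medians removed (adjusted p = 0.07944). The receptor Notch1 was the 1 call among 14 Notch genes, at 6.63 ± 0.501 and 4.62 ± 0.203 TPM against 1.76 ± 0.110 and 2.09 ± 0.198.

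Of 30 tested HOX genes, which set position along the body axis, 3 were called higher. These were Hoxb6, Hoxa13 and Hoxa11, all under 5 TPM in at least 1 colon line. Hoxa11 averaged 14.8 ± 0.530 TPM in MC38 but only 0.29 ± 0.0721 in CT26, against 0.10 ± 0.07 in LLC, and was listed at 0 in Pan02. The call of Hoxb6 was lost without CT26 replicate 1 or CT26 replicate 3 (limma adjusted p = 0.05139 to 0.05272), that of Hoxa13 without any of 10 libraries (0.05443 to 0.143) and that of Hoxa11 without any of 9 (0.05073 to 0.1596). Only Hoxb6 was called with RECTAS. Hoxa13, a factor of the hindgut and distal limb, averaged 1.68 ± 0.475 and 2.03 ± 0.301 TPM in the colon lines and 0.96 ± 0.157 TPM in LLC and was listed at 0 in Pan02.

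Interferon-stimulated genes were called higher in 7 of 29 tested (24.1%) and lower in 1, with a median difference of 0.57. These genes are switched on by interferon or by sensors of foreign nucleic acid. Their summed level had a median of 1504 TPM in CT26, 749 in MC38, 747 in LLC and 1098 in Pan02, so the total did not separate the sides. Isg15, a ubiquitin-like modifier, was at 18.8, 20.2 and 20.7 TPM in CT26, 9.62, 12 and 11.9 in MC38, 2.85, 4.28 and 1.84 in LLC and 3.13, 2.19 and 2.27 in Pan02. Both colon lines lay above both others in every library, with CT26 above MC38 (difference 2.11 ± 0.14, limma adjusted p = 0.0001033). Cgas, which senses DNA, averaged 12.4 ± 0.820 and 17.4 ± 0.635 TPM against 2.52 ± 0.185 and 5.14 ± 0.188, Ifih1, which senses long double-stranded RNA, 1.99 ± 0.346 and 1.21 ± 0.178 TPM against 0.0433 ± 0.0058 and 0.0033 ± 0.0058, and Ddx58, the RIG-I gene, was higher by 1.19 ± 0.07. Aim2, the other DNA sensor named here, was among the leading lower genes. Xaf1, Ifi35 and Psmb8 were the other higher calls, and the transcription factor Stat2 was the lower one, at 2.19 and 2.87 TPM in CT26 and MC38 against 5.87 and 8.78 TPM. All 8 were called with RECTAS, and the list held 6 to 9 higher calls under the other scalings and corrections. The chemokines Cxcl10 and Ccl5, which draw T cells, were the 2 calls among 14 chemokines, both higher, and Ccl5 was not called with RECTAS (adjusted p = 0.1061).

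The promoters of the 3 called sensor and modifier genes that held a motif like the interferon response element are shown. Capitals mark the letters GAAA, any 2 bases, then GAAA, on either strand.
Isg15 (chr4:156200769-156201068, - strand): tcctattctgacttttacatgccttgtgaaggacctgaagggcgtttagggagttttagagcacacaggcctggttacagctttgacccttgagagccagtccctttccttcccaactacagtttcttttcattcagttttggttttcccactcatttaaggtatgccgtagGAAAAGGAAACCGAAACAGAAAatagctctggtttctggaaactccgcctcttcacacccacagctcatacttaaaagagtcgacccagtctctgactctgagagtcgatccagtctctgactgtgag
Ifih1 (chr2:62646206-62646505, - strand): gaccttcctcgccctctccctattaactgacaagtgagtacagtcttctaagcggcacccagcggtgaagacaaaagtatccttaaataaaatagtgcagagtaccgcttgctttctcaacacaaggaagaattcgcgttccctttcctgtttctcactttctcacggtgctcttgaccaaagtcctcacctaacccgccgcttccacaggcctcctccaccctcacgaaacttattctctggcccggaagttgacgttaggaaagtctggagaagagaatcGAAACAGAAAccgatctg
Ddx58 (chr4:40239776-40240075, - strand): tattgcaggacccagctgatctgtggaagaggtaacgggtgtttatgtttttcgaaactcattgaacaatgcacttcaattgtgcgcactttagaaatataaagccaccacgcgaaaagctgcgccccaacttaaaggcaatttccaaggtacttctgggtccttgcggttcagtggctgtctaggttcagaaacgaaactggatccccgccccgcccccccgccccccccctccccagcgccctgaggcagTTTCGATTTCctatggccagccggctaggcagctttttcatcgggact
Isg15 held 3 overlapping matches, and Ifih1 and Ddx58 held 1 each. The motif was in 3 of the 7 called genes, in 16 of the 31 listed interferon-stimulated genes with a promoter in the table, in 248 of 8729 tested genes (2.8%), in 22 of 582 genes called higher (3.8%) and in 17 of 642 called lower (2.6%).

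MHC class I presentation was called higher in 5 of 23 tested genes (21.7%) and lower in 0, with a median difference of 0.63, and the 5 were called with RECTAS. By line means alone, 6 separated the sides with the colon lines higher and 1 with them lower. The summed level of the list had a median of 2595 TPM in CT26, 5720 in MC38, 3173 in LLC and 2117 in Pan02. That total did not separate the sides, as LLC lay above CT26. Class I molecules show peptides of the cell to CD8 T cells. H2-K1, a classical class I chain, was at 262, 245 and 253 TPM in CT26, 824, 806 and 808 in MC38, 105, 108 and 99.5 in LLC and 50.2, 47.7 and 53.2 in Pan02. MC38 was highest and Pan02 lowest, with a smallest difference of 1.28 (limma adjusted p = 3.678e-09). H2-Q4 and H2-Q6 averaged 35.1 ± 1.10 and 9.61 ± 0.389 TPM in CT26, 84.1 ± 1.43 and 87.0 ± 0.537 in MC38, 7.88 ± 0.508 and 0.153 ± 0.0802 in LLC, and H2-Q4 0.107 ± 0.0379 TPM in Pan02 where H2-Q6 was listed at 0. Class I genes are near-identical copies that also differ between BALB/c and C57BL/6 mice, so reads may move between them and between lines of unlike strain, which was not tested. Psmb8, an immunoproteasome subunit that also stands in the interferon list, averaged 26.8 and 116 TPM against 20.8 and 0.0133 TPM, and Psme2, of its activator, 141 and 139 against 65.8 and 79.1 TPM. The list held 5 higher calls under each scaling and correction tried, with 1 lower call added by the GC and length correction.

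Checkpoint and immune ligands went the other way in 4 of 20 tested genes (20.0%), against 1 higher. Lgals9, a galectin that binds receptors on T cells, was at 3.96, 4.57 and 3.30 TPM in CT26 and 5.25, 4.42 and 4.67 in MC38 against 12.1, 12.3 and 10.4 in LLC and 10.7, 9.78 and 10.9 in Pan02 (difference -1.17 ± 0.07, limma adjusted p = 3.693e-05). The colon libraries all lay below the others. Vsir, the VISTA gene, the ectoenzyme Nt5e and the NKG2D ligand Raet1e were lower too, though Vsir and Nt5e were under 3 TPM in every line mean. Vsir was not called with chromosome medians removed (adjusted p = 0.5004), and Raet1e shares exons with H60b and Raet1d on its own strand. Pvr, a ligand of TIGIT and CD226, was higher, at 51.6 and 33.0 TPM against 20.6 and 25.6 TPM.

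Glycolysis and hypoxia genes were called lower in 9 of 34 tested (26.5%) and higher in 0, with a median difference of -0.40. By line means alone, 14 separated the sides with the colon lines lower and 0 with them higher. Cells take up glucose and split it to pyruvate and lactate by these enzymes, and many of the genes are raised by the factor Hif1a when oxygen falls. The largest gap was in Egln3, an oxygen-sensing prolyl hydroxylase on chromosome 12. It was at 0.58, 0.50 and 0.51 TPM in CT26, 12, 11.5 and 12.1 in MC38, 84.1, 82.5 and 86.0 in LLC and 73.6, 72.5 and 70.9 in Pan02. LLC and Pan02 were close to each other, MC38 was well below them and CT26 was nearly off (difference -4.16 ± 0.03, smallest difference 2.51, limma adjusted p = 7.238e-12).

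The enzymes themselves stepped down by less. Eno1, an enolase, averaged 900 ± 18.7 TPM in CT26 and 1616 ± 32.7 in MC38 against 2557 ± 156 in LLC and 2162 ± 77.6 in Pan02, and the phosphofructokinases Pfkl and Pfkp had smallest differences of 0.45 and 0.43. Pkm, the pyruvate kinase gene, and Ldha, the lactate dehydrogenase chain, were lowest in MC38, at 1386 and 1097 TPM, while Eno1, Tpi1 and Hk1 were lowest in CT26. Hif1a itself, also on chromosome 12, averaged 38.8 and 38.2 TPM in CT26 and MC38 against 127 and 52.0 TPM in LLC and Pan02 (adjusted p = 0.01747). The 9 genes did not overlap between the sides in any library. Genes called on these same libraries nearly all behave so, and this adds no support. With RECTAS 6 of the 9 were called, and Pfkl, Tpi1 and Ldha were not (Pfkl adjusted p = 0.454). The list held 7 to 11 lower and 0 higher calls under the other scalings and corrections. The media of the 2 sides differ, and their part in these levels was not tested.

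**Figure D4:**
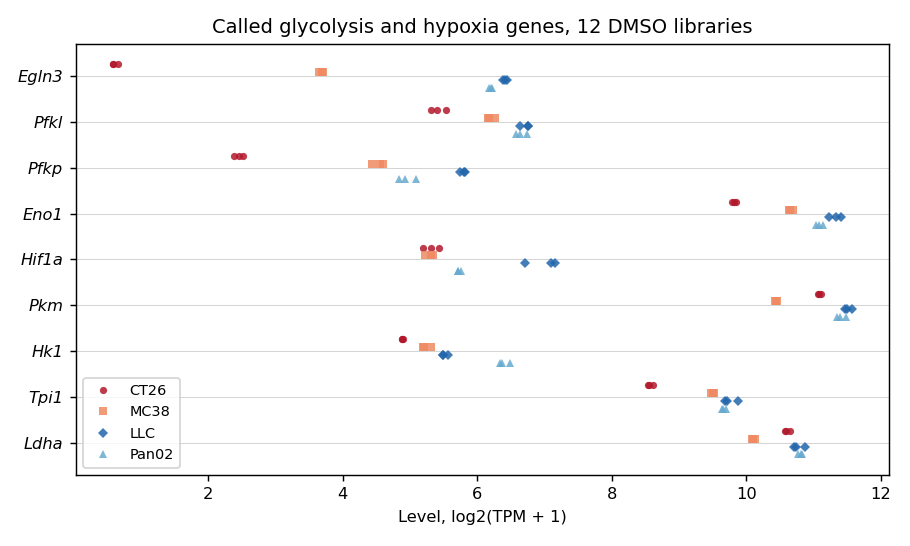
Level, as log2(TPM + 1), of the 9 glycolysis and hypoxia genes called lower in the colon lines, in each of the 12 DMSO libraries, 1 point a library. Egln3 falls from above 70 TPM in LLC and Pan02 to 11.9 TPM in MC38 and 0.53 TPM in CT26, and the enzymes differ by smaller steps.

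The promoters of 2 of these enzymes are shown with the core of the hypoxia response element, ACGTG or GCGTG, in capitals on either strand.
Eno1 (chr4:150236458-150236757, + strand): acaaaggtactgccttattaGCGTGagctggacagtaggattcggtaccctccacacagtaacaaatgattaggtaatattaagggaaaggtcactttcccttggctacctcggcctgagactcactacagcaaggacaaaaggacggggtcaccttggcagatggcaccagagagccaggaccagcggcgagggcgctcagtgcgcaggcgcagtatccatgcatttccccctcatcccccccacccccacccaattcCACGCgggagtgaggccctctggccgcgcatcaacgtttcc
Pfkl (chr10:78009758-78010057, - strand): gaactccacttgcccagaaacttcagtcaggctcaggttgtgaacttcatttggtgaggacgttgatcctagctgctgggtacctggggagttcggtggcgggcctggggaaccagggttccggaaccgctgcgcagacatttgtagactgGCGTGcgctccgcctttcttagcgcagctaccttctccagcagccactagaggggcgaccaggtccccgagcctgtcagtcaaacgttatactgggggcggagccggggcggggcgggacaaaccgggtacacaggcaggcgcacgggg
Eno1 held 2 matches and Pfkl 1. The RefSeq start used for Pfkl lies 276 bases from its GENCODE start, inside the annotated gene. Its whole window, with the match, thus lies downstream of the GENCODE start. The core was in 4 of the 7 called genes with a promoter in the table and in 14 of 18 other tested genes of the list. It was also in 5683 of 8729 tested genes (65.1%), so its presence in these windows is common.

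Other metabolic lists were mixed. Of 21 serine, folate and one-carbon genes, 3 were called lower and 2 higher. Phgdh, the first enzyme of serine synthesis, averaged 262 ± 4.99 and 436 ± 9.89 TPM in CT26 and MC38 against 710 ± 51.6 and 648 ± 12.8, while Psat1, the next enzyme, was higher, at 330 and 536 TPM against 269 and 258 TPM. The folate enzyme Mthfd1 and the serine carrier Sfxn1 were lower and Shmt1 higher. The call of Mthfd1, on chromosome 12, was lost with chromosome medians removed (adjusted p = 1.0). Of 20 amino acid transporters 1 was called each way, Slc1a5 higher and Slc7a7 lower, and of 27 ATF4 targets 3 were called higher (Atf5, Cebpg and Ppp1r15a). All 3 lie on chromosome 7, and removing chromosome medians ended the calls of Cebpg (adjusted p = 0.1926), Ppp1r15a (0.2112) and Slc1a5 (0.2946), which is on chromosome 7 as well. Among 25 cholesterol genes 0 were called, with a median difference of -0.61, and by line means 1 separated the sides. Their summed level had a median of 1013 TPM in CT26, 542 in MC38, 529 in LLC and 2461 in Pan02, so Pan02 stood highest and LLC lowest. RPMI-1640 and DMEM are known to differ in glucose and in amino acids, and the part of the medium was not tested.

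Detoxifying genes were called lower in 5 of 40 (12.5%) and higher in 1. Gsta4, a glutathione transferase that clears lipid aldehydes, was at 6.82, 6.62 and 5.91 TPM in CT26, 0.59, 0.58 and 0.71 in MC38, 36.3, 39.0 and 38.3 in LLC and 76.4, 76.1 and 69.2 in Pan02 (difference -3.95 ± 0.04, limma adjusted p = 5.246e-10). The 4 lines did not overlap, with MC38 lowest and Pan02 highest. Gstm2 averaged 1.02 ± 0.0404 and 4.39 ± 0.606 TPM against 45.1 ± 1.44 and 15.2 ± 1.01, and Mgst1, the carbonyl reductase Cbr1 and the pentose phosphate enzyme Pgd were the other lower genes. Gstp1 was higher by 0.46 ± 0.03 (adjusted p = 0.01155). The list held 4 to 8 lower and 0 to 1 higher calls under the other scalings and corrections.

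Genes of growth control and genome upkeep gave few calls. Of 39 cancer genes, Sox2, a stem cell factor, was between 96.0 and 105 TPM in CT26, averaged 2.37 ± 0.321 in MC38 and was at 0.01 TPM or less in the others, and the cyclin Ccnd1 averaged 514 and 414 TPM against 148 and 383 TPM (smallest difference 0.11, limma adjusted p = 0.006016). Mycl and Fbxw7 were called, higher and lower, and lost their calls without any of 11 (adjusted p = 0.05797 to 0.1702) and 9 libraries (0.05018 to 0.1536). Of 27 p53 targets and CDK inhibitors, Sesn1 and Cdkn1b were lower and Bbc3 higher. Sesn1, a stress-induced regulator of mTORC1, averaged 2.52 ± 0.115 and 4.34 ± 0.171 TPM against 10.8 ± 0.621 and 12.2 ± 0.259.

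Of 9 tested mismatch repair genes 3 were lower. Mlh3 averaged 2.78 ± 0.145 and 3.72 ± 0.580 TPM against 8.10 ± 1.13 and 9.03 ± 0.281. Msh6 averaged 38.2 ± 0.216 and 39.9 ± 1.10 TPM against 57.3 ± 2.90 and 44.8 ± 1.05, and lost its call without MC38 replicate 1 (adjusted p = 0.0774) or Pan02 replicate 1 (0.06854), was not called with chromosome medians removed (1.0) and was not called with RECTAS. Mlh3 lies on chromosome 12 and Msh6 on chromosome 17. Of 21 SR proteins and kinases, Clk3 was called higher and Srsf7 lower, by 0.40 ± 0.04 and -0.30 ± 0.02. In this list Srsf6, Clk1, Clk2 and Clk4 are genes that RECTAS is known to involve. Srsf6 averaged 185 ± 3.32 and 220 ± 4.55 TPM in CT26 and MC38, was at 197, 199 and 207 TPM in LLC and averaged 159 ± 2.01 TPM in Pan02, so the sides overlapped, and Clk1, Clk2 and Clk4 were not called. Clk3 overlaps Edc3 on the opposite strand. Srsf7, on chromosome 17, was not called with chromosome medians removed (adjusted p = 1.0). With the GC and length trend removed it was not called either (limma adjusted p = 0.08291).

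Of 42 ribosomal protein genes 6 were called lower (Rpl7, Rpl12, Rps2, Rps7, Rps10 and Rps18) and Rpl19 higher, and that split moved with scaling, to 4 lower and 4 higher under quantile normalization, 3 and 0 under median-ratio scaling and 2 and 0 with chromosome medians removed. Among the 4 lines, Rps2 and Rps18 stood apart in CT26, at 312 ± 4.08 and 483 ± 31.1 TPM. They were at 5291 ± 173 and 3756 ± 76.2 TPM in MC38, 8105 ± 819 and 4719 ± 306 in LLC, and 7632 ± 213 and 5068 ± 98.2 in Pan02. Outside the 4, WEHI3 was low as well, with DMSO means of 181 and 413 TPM. B16 had 7016 and 3121 TPM, and EG7 5238 and 4749 TPM. Ribosomal protein genes have many near-identical pseudogenes that can take their reads, and among the 4 lines CT26 is that of another mouse strain. The values of these 2 genes are therefore uncertain. The strains of WEHI3, B16 and EG7 were not taken into account, and the part of strain was not tested in any of the 7 lines. Of 13 mitochondrially encoded mRNAs 0 were called.

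Calls were not spread evenly over the chromosomes. On chromosome 12, 130 of 514 tested genes were called lower (25.3%) and 12 higher (2.3%), with a median difference of -0.42. On chromosome 17, 113 of 704 were called lower (16.1%) and 16 higher (2.3%), with a median difference of -0.28. Together they held 26.9% of the lower calls and 8.7% of the tested genes. Chromosomes 5, 7 and 11 leaned the other way, with 11.5%, 11.6% and 11.6% called higher and 2.9%, 2.7% and 2.9% lower. Chromosome 10 had 78 of 667 genes called lower (11.7%) and 2.7% higher, and chromosome 3 had 10.1% lower and 3.8% higher. Col18a1, Itga7, Pfkl, Pcbd1, Sesn1, Vsir and Raet1e are lower genes of chromosome 10, where the median deviation was -0.39 in CT26 and 0.18 in MC38. The RECTAS libraries gave 26.4% lower on chromosome 12 and 14.5% on chromosome 17.

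Both lines of a side moved on chromosome 12. The median deviation from the mean of the 4 lines was -0.34 in CT26 and -0.16 in MC38, against 0.14 in LLC and 0.25 in Pan02. On chromosome 17 it was -0.07, -0.26, 0.08 and 0.17. Cut into 10 runs of genes by position, chromosome 12 had a median difference below 0 in all 10, from -0.83 to -0.005. Chromosome 17 had one below 0 in all 10 as well, from -0.50 to -0.20. The lean was uneven on chromosome 12, where the run at -0.005 showed almost none. Shares of lower calls there ran from 7.8% to 51.9%, the highest in the run at its start, against 6.45% over all genes. On chromosome 17 they ran from 11.3% to 26.8%. The copy number of these chromosomes was not measured here. The median GC content of the tested genes was 48.5% on chromosome 12 and 52.7% on chromosome 17. When the median of each chromosome was subtracted in each library, 816 genes were called higher and 793 lower, of which 598 (68.2% of the 877) and 548 (60.6% of the 905) were the same genes. The 28 leading genes remained called, and 13 of the 98 called genes named by the rules lost their call.

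**Figure D5:**
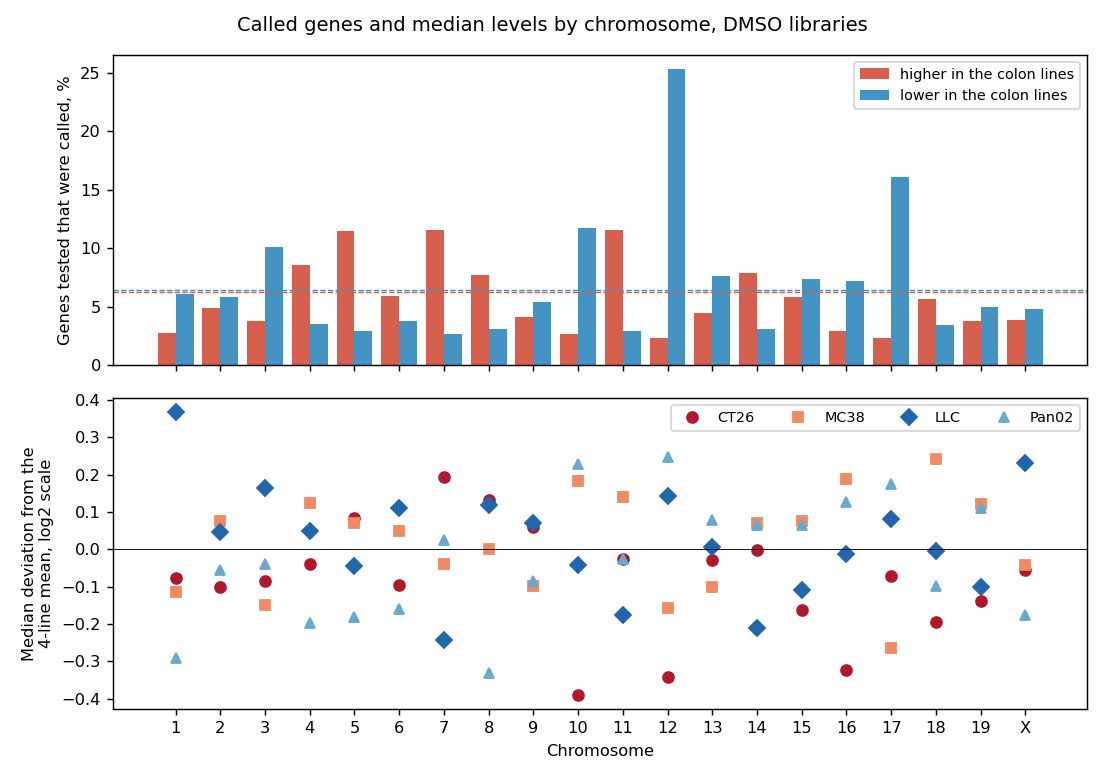
Above, share of the tested genes of each chromosome called higher or lower in the colon lines, with dashed lines at the shares over all genes, 6.25% and 6.45%. Below, the median over those genes of each line's deviation from the 4-line mean on the log2 scale, 1 point a line. Chromosome 12 reaches 25.3% lower and chromosome 17 16.1%, with CT26 and MC38 below LLC and Pan02 on both.

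The difference between the sides was compared between treatments. Over all 24 libraries of the 4 lines, 5 of 14272 genes (0.035%) had a colon-minus-other difference that differed between RECTAS and DMSO by limma at an adjusted p under 0.05, and 1235 (8.65%) had an unadjusted p under 0.05. With a pseudocount of 5 the adjusted count was 29. The count of 5 ran from 1 to 14 on leaving out single libraries, 14 without LLC replicate 2 in DMSO. MC38 stood apart in 2 measures of the libraries. Mitochondrially encoded genes took 8.30% ± 0.28 of its total (SD, n = 3), against 5.01% ± 0.218 in CT26, 5.40% ± 0.62 in LLC and 5.25% ± 0.552 in Pan02. The share of its 10 most abundant genes was 10.89% to 11.44%, against 8.64% to 9.87% in the other lines, and the part of this in the results was not tested. The number of genes at or above 1 TPM ran from 11451 to 11990 a library, and replicates of a line correlated across genes at 0.9889 to 0.9933.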

How the data were processed

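Polyadenylated RNA was sequenced from 7 mouse tumour lines, and the 24 libraries of CT26, MC38, LLC and Pan02 were compared here, with 3 libraries for each line and treatment. The deposited values were TPM per gene, made by the authors. Per the submitters' processing notes, HISAT2 2.2.0, RSEM 1.3.0 and GRCm38 were used. Per the labels' protocols, the kit was TruSeq stranded mRNA. The annotation release and strand setting were not given in the sources used. TPM values keep no read counts, so depth is unknown and no counting interval is given.

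IDs were looked up in GENCODE M21, where 99.53% matched. Genes whose mean reached 1 TPM in any of the 4 lines were tested on log2(TPM + 1), a scale that understates differences of low genes, with limma 3.58.1 in R 4.3.3, 4 line means and an intensity trend. The p of a gene was the largest of 4 two-sided cross-line p-values, with Benjamini-Hochberg adjustment. The test was checked on simulated data in which lines differed only in seeded genes. That check therefore does not cover the unrelated differences that real lines have. Named genes were the 14 with the largest smallest cross-line difference each way, the 3 largest called in each list, the markers, Srsf6, Clk1, Clk2 and Clk4. Other called members of a list were named after their values were seen, and some genes that the rules name are not reported here. The genes and the 38 lists (8 of markers, 30 of pathways) were chosen with earlier results of these data known. Alternatives covered pseudocount, filter, scaling, trend, replicate number, spread, size and each library left out, and, chosen after seeing the data, removal of chromosome medians and of GC and length trends.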

Additional observations from a re-analysis of the deposited data

Results flagged for a closer look

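Of the 14272 genes tested over the 24 libraries, 5 had a colon-minus-other difference that changed between DMSO and RECTAS (limma, adjusted p under 0.05), and they were chosen after their values were seen. H2bc21, a histone H2B gene, had a difference of -1.79 with DMSO and -1.42 with RECTAS, a change of 0.37 ± 0.06 (SE, adjusted p = 0.04133). Its values went from 1.86, 1.83 and 2.09 TPM to 4.22, 4.37 and 4.50 TPM in CT26 and from 1.86, 1.83 and 1.78 to 2.81, 2.96 and 3 TPM in MC38, while the means went from 4.74 to 6.12 TPM in LLC and from 16.2 to 20.2 TPM in Pan02.

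Fam220a changed by 0.28 ± 0.05 (adjusted p = 0.03825), from a difference of 0.20 to one of 0.48, and shares exons with another gene model of the same symbol. Hacd1, an enzyme of very-long-chain fatty acid synthesis, changed by -0.37 ± 0.06 (adjusted p = 0.0256), with DMSO and RECTAS means of 130 and 73.3 TPM in CT26, 20.2 and 11 TPM in MC38, 33.7 and 26.7 TPM in LLC, and 63.9 and 42.3 TPM in Pan02. Slc5a4a changed by -0.46 ± 0.04 (adjusted p = 7.304e-06) and the pseudogene Gm11427 by -0.54 ± 0.08 (adjusted p = 0.0256). Among the 4 lines both had more than 0.1 TPM in MC38 alone, where Slc5a4a was at 13.3, 13.3 and 14 TPM with DMSO and 6.31, 6.70 and 6.75 TPM with RECTAS, and Gm11427 averaged 13.4 and 5.74 TPM, so these values rest on 1 line.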

How the results depend on the processing

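Of the counts of calls, those of the DMSO and RECTAS libraries stayed within 1.5 times under every setting but the one that asks for a smallest cross-line difference of at least 1. That setting left 165 higher and 144 lower calls with DMSO, 158 and 141 with RECTAS, and 176 and 149 genes whose line means separated the sides. Without the level filter 3911 and 3472 genes were separated, since many more genes near 0 were counted. Leaving out each library gave 791 to 876 higher and 790 to 1028 lower calls, the last without LLC replicate 2. The ranges were 2022 to 2178 and 2134 to 2307 for separated genes, and 865 to 945 and 792 to 887 with RECTAS. The 5 genes that differed between RECTAS and DMSO became 29 with a pseudocount of 5, 22 without the filter, 9 with median-ratio scaling, 8 with quantile normalization, 11 without the intensity trend and 1 to 14 on leaving out a library, and the cause was not tested. Replicate numbers did not pair the libraries, since deviations of same-numbered libraries correlated at -0.153 to 0.126 and the best match of a library was its own number in 9 of 36 matches examined. The replicate block gave 819 higher and 824 lower calls with DMSO, 952 and 885 with RECTAS and 5 for the difference between them, and ended the calls of Gsk3b, Hoxa13, Hoxa11, Fbxw7 and Mycl. Apart from chromosome medians and the size setting, every setting shared 83.6% to 98.7% of the higher and 87.1% to 99% of the lower calls. The GC and length correction, chosen after seeing the data, gave 873 higher and 1092 lower calls, a share of 44.4% higher against 49.2%. Of the 98 called genes named by the rules, 41 had a smallest difference under 1, 19 lost a call in another setting, size aside, and 0 changed direction. Low TPM values limit what can be said of genes near 0, since the smallest value above 0 was 0.01 TPM.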
